A study of Oryza sativa with 36 samples.

Results

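The 9 rice genes described here encode phenylalanine ammonia-lyase (PAL). They were taken by identifier, as 4 neighbouring genes on chromosome 2 (LOC_Os02g41630, LOC_Os02g41650, LOC_Os02g41670 and LOC_Os02g41680), a pair on chromosome 4 (LOC_Os04g43760 and LOC_Os04g43800) and single genes on chromosomes 5, 11 and 12 (LOC_Os05g35290, LOC_Os11g48110 and LOC_Os12g33610). All 9 are among the 55801 genes of the deposited count tables. The rule that picks them uses identity alone, but the members were chosen with earlier results of these data known. The chromosome is the one that each identifier carries, since the sources used here name no genome build. The tables hold no gene names, so members are called by identifier.

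PAL removes the amino group of phenylalanine to give cinnamic acid, the first step of the phenylpropanoid pathway. Cinnamate 4-hydroxylase (C4H) and 4-coumarate:CoA ligase (4CL) follow, and their products feed lignin, flavonoids and other phenolic compounds. In plants PAL is usually encoded by several genes that differ in organ and in response to wounding, pathogens and nutrient supply, and the enzyme is known for setting the flow of carbon into lignin of the root and stem vasculature.

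The samples were shoots and roots of rice seedlings (Oryza sativa, ecotype Nipponbare) harvested at 15 days. They grew in Kimura B nutrient solution under a photoperiod of 12 h, at 26 °C by day and 22 °C by night. Wild type was compared with rice carrying a transgene for FTO, an animal enzyme that removes the methyl group of N6-methyladenosine (m6A) from RNA, and with rice carrying FTOmut, a form of FTO without demethylase activity. The sources used here do not say which promoter drives the transgenes or how many lines were used, and the labels call the FTO plants homogeneous transgenics. All groups share cultivar, age and culture. RNA-seq had 12 libraries, 2 for each genotype and organ, from RNA depleted of ribosomal RNA, and m6A-seq had 24 libraries, input and immunoprecipitate, with 1 list of peaks in genes for each of 12 pairs. The labels do not say that replicates were separate cultures, so p-values measure only the spread between these libraries.

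Gene counts per RNA-seq library were between 12970274 and 17875977. Root and shoot libraries followed their labels: all 5 green tissue markers were lower and all 5 root markers higher in root than in shoot in each genotype. Some libraries stood apart from their replicate. Wild-type shoot replicate 2 had a summed level of the 5 green tissue markers of 1075 CPM (counts relative to the TMM-scaled size of the library), against 7482 in replicate 1 and 4376 to 6787 in the other shoot libraries. In FTOmut replicate 2, at least 10 counts fell on 46166 genes in root and on 36486 in shoot, against 30053 and 21859 genes in FTOmut replicate 1. The FTOmut roots held 867.3 and 518.3 CPM of the green tissue markers, against 103.2 to 138.3 in the other roots, and none of these 5 markers was at 0 in any library. The root markers summed to 249.9 and 252.4 CPM in FTO root, against 856.9 and 719.2 in wild-type root. A pair of loci on chromosome 9 took 23.2% and 22.0% of gene counts in the FTO roots against 3.19% and 2.31% in the wild-type ones. Their share was 64.8% and 63.6% in the FTO shoots against 21.0% and 34.4% in the wild-type ones. The part of the markers in the PAL results was not tested; calls that change without a library or without these loci are given beside each result. In whole organs, fewer cells of a type and less RNA per cell cannot be told apart.

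PAL transcripts were present at very unequal levels. Levels between genes are given per kb of gene length (CPM per kb), with libraries of both organs scaled together by TMM, which sets the library size so that most genes keep their level across libraries. In wild-type root LOC_Os02g41630 had 356.3 ± 32.4 CPM per kb (SD, n = 2) and LOC_Os02g41650 had 230.0 ± 3.18. Both belong to the chromosome 2 group. LOC_Os05g35290 followed with 62.4 ± 1.37 and LOC_Os02g41680 with 61.04 ± 9.72, a pair that did not differ beyond its spread. LOC_Os04g43760 had 31.1 ± 3.29 CPM per kb, LOC_Os02g41670 had 18.8 ± 4.46 and LOC_Os04g43800 had 3.11 ± 0.0347. These 3 did not overlap. LOC_Os12g33610, with 0.236 ± 0.156, was barely present in root, and LOC_Os11g48110 had 0.0544 ± 0.0480.

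The order changed in the transgenic roots. In FTO root LOC_Os02g41650 led with 433.2 ± 2.33 CPM per kb (SD, n = 2), followed by LOC_Os02g41630 with 327.2 ± 39.9. LOC_Os02g41670 with 167.2 ± 3.54 and LOC_Os02g41680 with 154.9 ± 3.96 came next, ahead of LOC_Os05g35290 with 92.7 ± 2.97. The 3 genes after the leading pair thus stood in another order than in wild-type root, where LOC_Os02g41670 was below LOC_Os04g43760. In FTOmut root LOC_Os02g41650 had 534.9 ± 162.5, LOC_Os02g41680 had 407.9 ± 143.1, LOC_Os02g41670 had 337.1 ± 187.7, LOC_Os05g35290 had 263.6 ± 103.3 and LOC_Os02g41630 had 246.8 ± 101.0. No neighbours in that order differed beyond their spread. LOC_Os04g43760, LOC_Os04g43800, LOC_Os12g33610 and LOC_Os11g48110 were the 4 lowest genes in both, with LOC_Os04g43760 at 25.4 ± 0.24 in FTO root and 22.9 ± 8.77 in FTOmut root.

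In shoot the leading pair of chromosome 2 genes was the same as in wild-type root. In wild-type shoot LOC_Os02g41630 had 247.8 ± 14.4 CPM per kb (SD, n = 2) and LOC_Os02g41650 had 219.0 ± 86.5, which did not differ beyond their spread. The next 4 genes overlapped in level, with LOC_Os02g41680 at 31.6 ± 14.3, LOC_Os02g41670 at 23.2 ± 28.3, LOC_Os12g33610 at 21.02 ± 13.3 and LOC_Os05g35290 at 20.4 ± 23.9 CPM per kb. LOC_Os04g43760 had 13.03 ± 9.56 and LOC_Os04g43800 had 4.79 ± 4.11. In FTO shoot LOC_Os02g41650 with 323.2 ± 30.2 and LOC_Os02g41630 with 269.4 ± 23.6 led, and LOC_Os12g33610 followed with 47.8 ± 1.95, above LOC_Os02g41680 with 31.4 ± 1.34. In FTOmut shoot LOC_Os02g41630 with 245.6 ± 83.2 and LOC_Os02g41650 with 221.0 ± 102.2 did not differ beyond their spread, and the other 6 tested genes lay between 19.4 and 61.9. LOC_Os11g48110 had between 0 and 13 counts in the 12 libraries and did not pass the filter on low counts in either organ, so 8 of the 9 genes were tested.

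**Figure D1:**
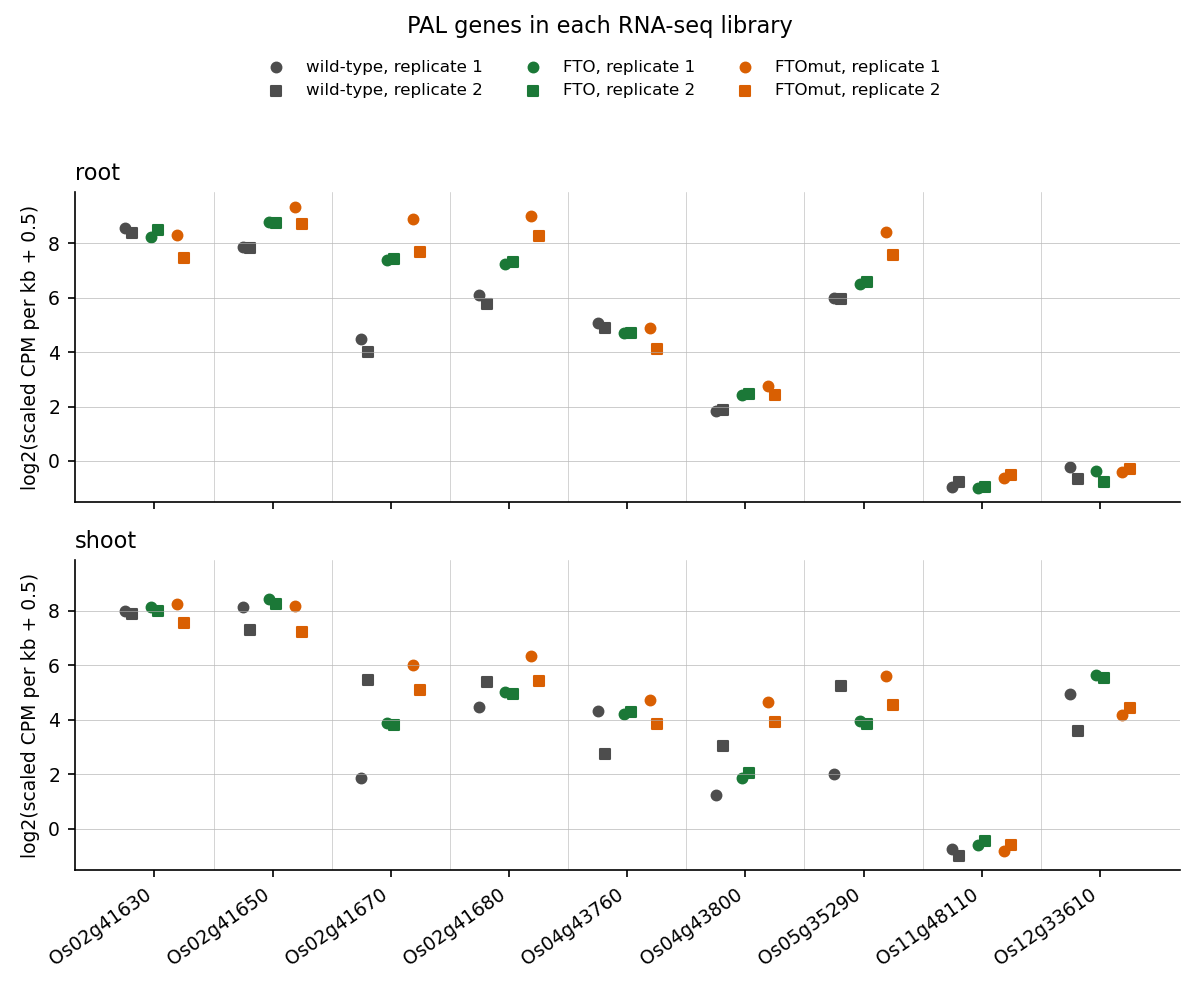
Level of each of the 9 PAL genes in the 12 RNA-seq libraries, as log2 of scaled CPM per kb plus 0.5, with root above and shoot below. Colours mark the genotype and marker shapes the replicate. LOC_Os02g41670 rises from 21.95 and 15.6 CPM per kb in wild-type root to 164.7 and 169.7 in FTO root, and LOC_Os12g33610 sits near the floor in every root library.

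Summed over the 9 genes, PAL transcripts were more abundant in the transgenic roots. The family had 801.5 and 724.4 CPM per kb in the wild-type root libraries, 1172 and 1240 in FTO root and 2319 and 1319 in FTOmut root. All 4 transgenic root libraries were above both wild-type ones, and the FTOmut libraries lay far apart from each other. In shoot the family had 618.5 and 543.2 CPM per kb in the wild-type libraries, 762.9 and 681.9 in those of FTO and 859.3 and 484.7 in those of FTOmut. The 3 genotypes overlapped there except for FTO against wild type, whose direction depends on the scaling. As a share of all gene counts the family was lower in FTO shoot (0.0739% and 0.0678%) than in wild-type shoot (0.132% and 0.13%), while relative to ERCC counts both FTO shoots were above both wild-type shoots. In root both measures put the 4 transgenic libraries above the wild-type ones. These sums have no test of their own.

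The make-up of this pool differed between genotypes in root, and shares need no scaling between libraries. LOC_Os02g41630 made up 47.3% and 46.03% of the family's CPM per kb in the wild-type root libraries, 25.5% and 28.7% in FTO root and 13.7% and 13.3% in FTOmut root. LOC_Os02g41670 went the other way, with 2.74% and 2.16% in the wild-type libraries, 14.05% and 13.7% in those of FTO and 20.3% and 15.5% in those of FTOmut. The groups of root libraries did not overlap for either gene. LOC_Os02g41680 had 8.47% and 7.48% in wild-type root, 12.98% and 12.7% in FTO root and 21.95% and 23.2% in FTOmut root. LOC_Os02g41650 held between 28.02% and 37.1% in the 6 root libraries. The 2 FTOmut root libraries had levels up to 2.31-fold apart for LOC_Os02g41670 but nearly the same shares for LOC_Os02g41630, LOC_Os02g41680 and LOC_Os05g35290, whose share was 14.5% and 14.4%. In shoot LOC_Os02g41630 kept 35.4% to 43.7% of the pool in every library.

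**Figure D2:**
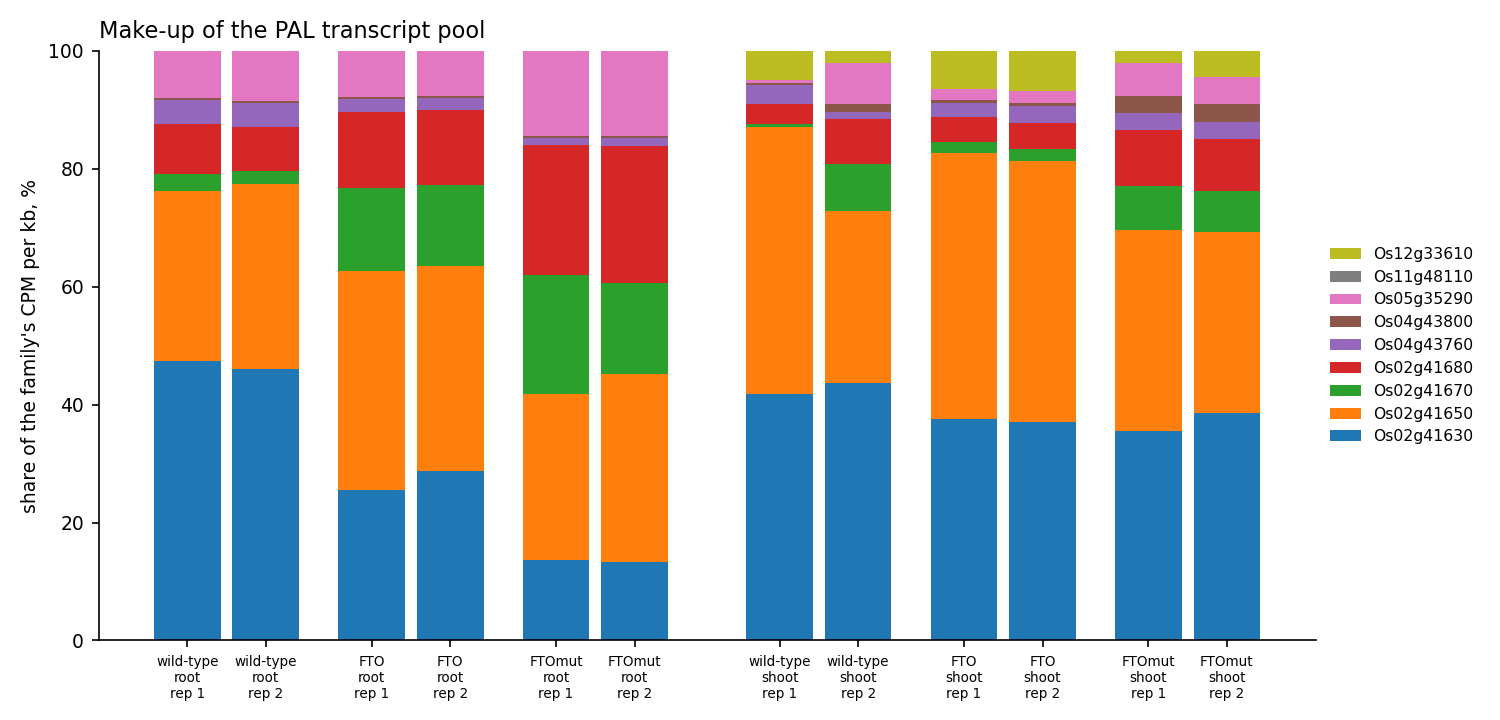
Share of each PAL gene in the family's summed CPM per kb, in percent, for the 12 libraries (bars, by organ, genotype and replicate). The share of LOC_Os02g41630 falls from 47.3% and 46.03% in wild-type root to 13.7% and 13.3% in FTOmut root, and LOC_Os12g33610 shows only in shoot.

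Transgenic FTO and wild-type roots were compared to ask how the family differs in plants that carry the demethylase. Of the 8 tested genes 5 were higher and 0 lower in FTO root (edgeR's quasi-likelihood test with Benjamini-Hochberg adjustment over all genes, adjusted p under 0.05). Among all 32467 genes tested, 35.1% were called, 16.3% as higher and 18.8% as lower. The median log2 fold change was 0.79 over the 8 PAL genes and 0.19 over all genes. Scaling to the ERCC spike-in, RNA added in a known amount per total RNA, moves that median of all genes to 0.69 and left the same number of PAL calls.

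LOC_Os02g41670 changed most. It had 88.8 and 62.9 CPM (scaled within root) in the wild-type libraries and 752.8 and 764.9 in the FTO libraries. This was a 10.01-fold rise (log2 3.32, SE 0.42, edgeR adjusted p = 0.00102), and every FTO library lay above every wild-type library. Its neighbour LOC_Os02g41680 had 269.0 and 213.4 CPM in wild type and 681.3 and 696.7 in FTO, 2.86-fold higher (log2 1.51, SE 0.23, adjusted p = 0.000193). LOC_Os02g41650, the gene with the most transcripts in the FTO roots, had 1174 and 1146 CPM in wild type and 2486 and 2434 in FTO. It was 2.12-fold higher (log2 1.09, SE 0.21, adjusted p = 0.0012).

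The fourth gene of the chromosome 2 group did not pass the test. LOC_Os02g41630 had 1548 and 1354 CPM in wild-type root and 1380 and 1619 in FTO root, and these values overlapped. Its log2 fold change was 0.05 (SE 0.25, adjusted p = 0.889), with a 95% interval of the fold from 0.713 to 1.5. The genes at this locus therefore had different fold changes from each other in the same libraries. Some of their reads were shared with other places: deposited counts of these 4 genes were fractional in 7 to 10 of the 12 libraries, so how reads were split between near copies is uncertain.

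Outside chromosome 2, LOC_Os04g43800 and LOC_Os05g35290 were higher with smaller folds. LOC_Os04g43800 had 12.8 and 12.9 CPM in wild type and 22.5 and 23.3 in FTO, 1.78-fold higher (adjusted p = 0.00536). LOC_Os05g35290, whose counts were whole in all libraries, had 248.7 and 239.8 CPM in wild type and 402.5 and 415.4 in FTO, 1.67-fold higher (adjusted p = 0.0245). The libraries of the genotypes did not overlap for either gene. LOC_Os04g43760 had 133.2 and 114.0 CPM in wild type and 115.4 and 112.3 in FTO (log2 -0.12, adjusted p = 0.698), and LOC_Os12g33610 had at most 1.28 CPM in any of these libraries (log2 -0.22, adjusted p = 0.846).

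With 2 libraries a group, these calls depended on each library. Leaving out 1 of the 4 libraries compared left 1 call (without wild-type replicate 2) or 2 calls (without wild-type replicate 1, FTO replicate 1 or FTO replicate 2), where the lone library is assumed to vary like the others. LOC_Os02g41670 was called each time, at log2 2.86 to 3.34. LOC_Os05g35290 was also not called by DESeq2 (adjusted p = 0.0517) or without the chromosome 9 loci (edgeR adjusted p = 0.0823). With no filter on low counts 3 genes were called, while LOC_Os04g43800 (log2 0.58) and LOC_Os05g35290 (log2 0.49) were not.

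FTOmut and wild-type roots were compared as the matching contrast for the protein without demethylase activity. Again 5 of the 8 tested PAL genes were higher and 0 lower, where 61.6% of all genes were called, 32.5% as higher and 29.1% as lower. The median log2 fold change was 1.0 over the PAL genes and 0.06 over all genes. Both contrasts use the same wild-type libraries, so their values are given side by side and are not independent.

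LOC_Os02g41670 had 1871 and 808.9 CPM in FTOmut root against 88.8 and 62.9 in wild type, a 17.7-fold rise (log2 4.14, SE 0.43, edgeR adjusted p = 0.000282). The lower FTOmut library was still above both wild-type libraries by a wide margin. LOC_Os02g41680 had 1987 and 1190 CPM, 6.58-fold above wild type (log2 2.72, SE 0.24, adjusted p = 9.01e-07), where FTO was 2.86-fold above. LOC_Os05g35290 had 1302 and 732.5 CPM, 4.17-fold above wild type (log2 2.06, SE 0.24, adjusted p = 1.3e-05), where FTO was 1.67-fold above. These 3 genes were called with each library left out in turn.

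LOC_Os02g41650 and LOC_Os04g43800 had folds close to those in FTO. LOC_Os02g41650 had 3238 and 2080 CPM in FTOmut root, 2.29-fold above wild type (log2 1.2, adjusted p = 0.000391). LOC_Os04g43800 had 25.4 and 19.5 CPM, 1.74-fold above wild type (log2 0.80, adjusted p = 0.00436). That gene was not called with no filter on low counts (log2 0.54, edgeR adjusted p = 0.128). With single libraries left out its log2 fold change ranged from 0.23 to 1.01. LOC_Os02g41630 had 1280 and 700.8 CPM, both below the wild-type libraries, but did not pass the test (log2 -0.55, SE 0.25, adjusted p = 0.0692). LOC_Os04g43760 had 114.4 and 65.3 CPM (log2 -0.46, adjusted p = 0.0988). With no filter on low counts both were called lower, at -0.79 (adjusted p = 0.0281) and -0.70 (adjusted p = 0.0488), and LOC_Os02g41630 also without the chromosome 9 loci (log2 -0.65, adjusted p = 0.0467).

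Leaving out either wild-type library left 3 calls, and leaving out FTOmut replicate 2 left 5. Without FTOmut replicate 1 there were 6 calls, with LOC_Os02g41630 (log2 -1.42) and LOC_Os04g43760 (log2 -1.29) lower. Beside these results, 4 of the 5 green tissue markers were higher in FTOmut than in wild-type root, where 32.5% of all genes were. In the same comparison 2 of the 5 root markers were lower, where 29.1% of all genes were. In FTO root 1 green tissue marker and 4 root markers were lower, where 18.8% of all genes were. The 2 root markers in FTOmut and the 1 green tissue marker in FTO are near these shares.

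FTO against FTOmut in root compares the active with the inactive protein. Here 0 of the 8 genes were higher and 2 lower in FTO, where 20.3% of all genes were called, 14.8% as higher and 5.47% as lower. LOC_Os02g41680 was 2.3-fold lower in FTO than in FTOmut (log2 -1.2, SE 0.23, edgeR adjusted p = 0.002), with 681.3 and 696.7 CPM against 1987 and 1190. LOC_Os05g35290 was 2.49-fold lower (log2 -1.31, SE 0.23, adjusted p = 0.00127), with 402.5 and 415.4 CPM against 1302 and 732.5. For both genes the FTO libraries lay below both FTOmut libraries and above both wild-type ones.

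The other PAL genes did not pass edgeR's test between the transgenic roots. LOC_Os02g41670 was at log2 -0.82 (SE 0.38, adjusted p = 0.196), with a 95% interval of the fold from 0.3 to 1.07, but DESeq2 called it lower in FTO (log2 -0.92, adjusted p = 0.0217). LOC_Os02g41650 was at -0.11 (adjusted p = 0.719) and LOC_Os04g43800 at 0.03 (adjusted p = 0.918). LOC_Os02g41630 was at 0.60 (adjusted p = 0.115) and LOC_Os04g43760 at 0.34 (adjusted p = 0.321). Both were called higher in FTO under ERCC scaling, at 1.11 and 0.86, where the median of all genes is 0.40 and LOC_Os02g41680 was no longer called (log2 -0.69, adjusted p = 0.0639). No gene was called without FTO replicate 1 or without FTO replicate 2, 6 were called without FTOmut replicate 1 (4 of them higher in FTO) and 4 without FTOmut replicate 2, all lower.

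**Figure D3:**
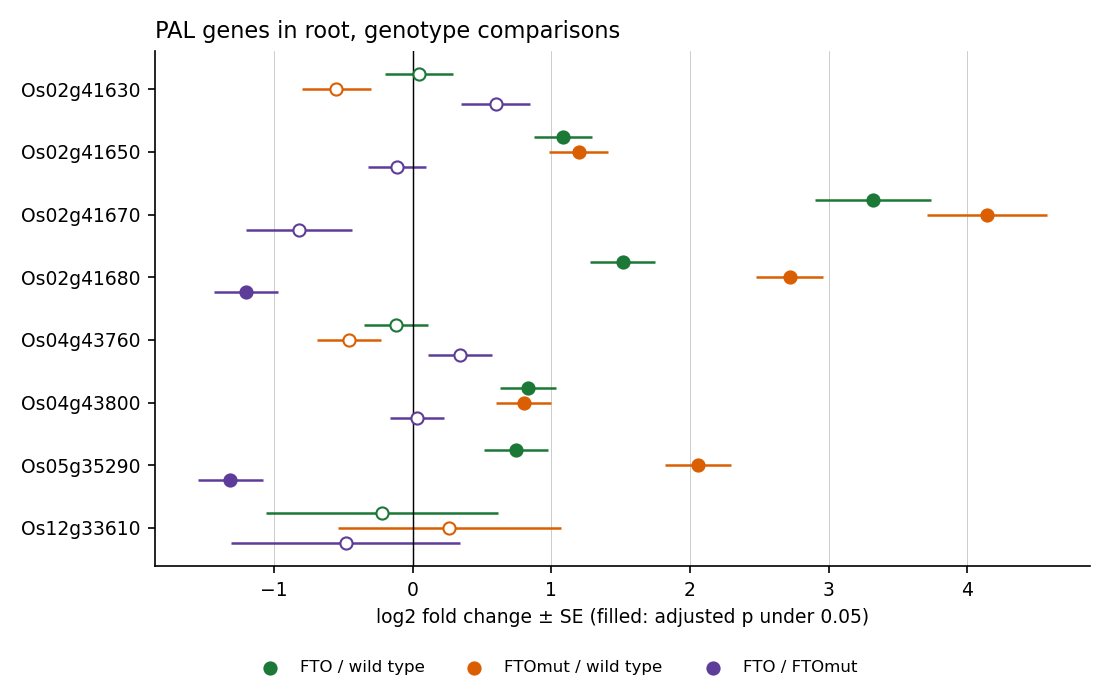
Log2 fold changes of the 8 tested PAL genes in root for FTO over wild type, FTOmut over wild type and FTO over FTOmut (points, with bars of 1 SE from the edgeR fit of 6 libraries). Filled points passed adjusted p under 0.05. LOC_Os02g41670 has the highest values, 3.32 and 4.14, and LOC_Os02g41680 and LOC_Os05g35290 are the filled points of FTO over FTOmut.

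In shoot 0 of the 8 tested PAL genes were called between any 2 genotypes by edgeR, and 0% of the 24463 genes tested were called in each of these comparisons. At an unadjusted p under 0.05, edgeR counted 835 genes and 0 PAL genes for FTO against wild type, 2179 and 1 for FTOmut against wild type, and 4139 and 1 for FTO against FTOmut. DESeq2 called 41, 532 and 1388 genes, of which 0, 0 and 1 were PAL genes.

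The PAL gene of both unadjusted counts was LOC_Os04g43800. Its level was 39.2 and 26.3 CPM (scaled within shoot) in the FTOmut libraries, 4.95 and 5.79 in the FTO libraries, and 3.29 and 12.8 in the wild-type ones. The FTOmut shoots were above all 4 others. FTOmut differed from wild type by log2 2.02 (SE 0.63, edgeR adjusted p = 0.415), and FTO from FTOmut by -2.61 (SE 0.65, adjusted p = 0.184). DESeq2 called the latter (adjusted p = 0.00371).

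The wild-type shoots disagreed with each other over several PAL genes. LOC_Os02g41670 had 5.35 CPM in replicate 1 and 69.95 in replicate 2, a 13.1-fold gap, with both FTO libraries between them at 22.0 and 20.8. LOC_Os05g35290 had 5.76 and 58.8 CPM in the wild-type libraries, 22.1 and 20.9 in those of FTO and 72.4 and 38.5 in those of FTOmut. LOC_Os12g33610 had 47.3 and 17.2 CPM in the wild-type libraries, 68.4 and 65.7 in those of FTO and 25.2 and 33.8 in those of FTOmut. In each of the 3 genes the gap between the wild-type replicates was wider than that within FTO or FTOmut.

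The direction of FTO against wild type turned with the wild-type library left out. Without wild-type shoot replicate 1, LOC_Os02g41670 was at log2 -2.12 in FTO against wild type and LOC_Os05g35290 at -1.85. Without replicate 2, LOC_Os02g41670 was at 1.74 and LOC_Os05g35290 at 1.64. For FTOmut against wild type with single libraries left out, LOC_Os02g41670 ranged from -0.22 to 3.64 and LOC_Os05g35290 from -0.49 to 3.0. Calls over all genes, too, rose from 0 in each shoot comparison when a wild-type library was left out. The comparison of FTO with FTOmut does not use the wild-type values themselves. It had 5 PAL calls when only its own 4 libraries were fitted, and the share of all genes called in that fit is not given here. LOC_Os02g41670, LOC_Os02g41680, LOC_Os04g43800 and LOC_Os05g35290 were then lower in FTO and LOC_Os12g33610 higher, at log2 -1.95, -1.1, -2.65, -1.4 and 1.11 with the 4 libraries.

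Roots were compared with shoots within each genotype to describe the family by organ. LOC_Os12g33610 was a shoot transcript in all genotypes. Its level in wild type was 0.347 and 0.126 CPM per kb in the root libraries against 30.4 and 11.6 in the shoot libraries. In FTO it was 0.266 and 0.0915 against 49.2 and 46.4, and in FTOmut 0.259 and 0.314 against 17.7 and 21.1. Root libraries were below shoot libraries throughout, by log2 -6.48 in wild type (SE 0.62, edgeR adjusted p = 1.4e-05), -8.05 in FTO (adjusted p = 6.98e-06) and -6.07 in FTOmut (adjusted p = 4.27e-05). LOC_Os12g33610 was the only PAL gene called in wild type, as 1 lower and 0 higher, where 19.9% of all 38524 genes tested were called, 10.5% as higher and 9.39% as lower. It was the only one of the 8 genes called under every alternative in all 3 genotypes.

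In the transgenic plants further genes were higher in root than in shoot. In FTO 3 PAL genes were higher and 1 lower, where 22.2% of all genes were called, 9.55% as higher and 12.7% as lower. In FTOmut 3 were higher and 2 lower, where 15.1% were called, 5.74% as higher and 9.34% as lower. LOC_Os02g41680 had 152.1 and 157.7 CPM per kb in FTO root against 32.4 and 30.5 in FTO shoot (log2 2.3, adjusted p = 0.00182), and 509.1 and 306.7 in FTOmut root against 81.1 and 42.8 in FTOmut shoot (log2 2.72, adjusted p = 0.000914). LOC_Os02g41670 was higher in root by log2 3.59 in FTO (adjusted p = 0.0103) and 2.77 in FTOmut (adjusted p = 0.0448). LOC_Os05g35290 was higher by 2.69 (adjusted p = 0.0243) and 2.9 (adjusted p = 0.0225). Most fits with a single library left out lost both calls of LOC_Os05g35290 or that of LOC_Os02g41670 in FTOmut. LOC_Os05g35290 was there at log2 2.67 to 2.84 in FTO and 2.28 to 4.1 in FTOmut. LOC_Os02g41670 was at 1.97 to 3.89 in FTOmut. In wild type the same 3 genes were at 0.95, -0.30 and 1.61 for LOC_Os02g41680, LOC_Os02g41670 and LOC_Os05g35290, with adjusted p of 0.146, 0.837 and 0.168.

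The remaining genes differed less between organs in FTO and FTOmut. In wild type LOC_Os04g43760 was at log2 1.26 (edgeR adjusted p = 0.0904), a wider difference than those of LOC_Os02g41680 and LOC_Os02g41670. LOC_Os04g43800 was lower in FTOmut root than in FTOmut shoot (log2 -1.83, SE 0.49, adjusted p = 0.0223), with 6.23 and 4.8 CPM per kb against 24.5 and 14.7. LOC_Os02g41630, LOC_Os02g41650 and LOC_Os04g43760 were not called by edgeR in any genotype, with log2 values from 0.01 to 1.27. LOC_Os02g41650 was called higher in FTOmut root by DESeq2 (log2 1.55, adjusted p = 0.000275) and by edgeR with RLE size factors (adjusted p = 0.0176).

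The organ results depended on the scaling. Under ERCC scaling the median of all genes for root against shoot moved from -0.26 to -1.8 in wild type, from 0.65 to -0.98 in FTO and from -0.07 to -1.95 in FTOmut. No PAL gene was then higher in root in any genotype, and 4 were lower in each. LOC_Os02g41670, LOC_Os02g41680 and LOC_Os05g35290 were then at 1.93, 0.65 and 1.03 in FTO and at 1.07, 1.02 and 1.22 in FTOmut, still above the median of all genes but not called. Single libraries also moved the counts. In wild type, 2 genes were called without wild-type shoot replicate 1 or FTOmut shoot replicate 2, and 3 without wild-type shoot replicate 2 or FTOmut shoot replicate 1. In FTO, 2 were called without any one of the 4 FTO libraries or without FTOmut shoot replicate 2. In FTOmut, 2 were called without either FTOmut root library, and 3 without FTOmut shoot replicate 2 or any one of the wild-type and FTO root libraries. Without FTOmut replicate 2 in both organs there were 2 calls in FTOmut.

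**Figure D4:**
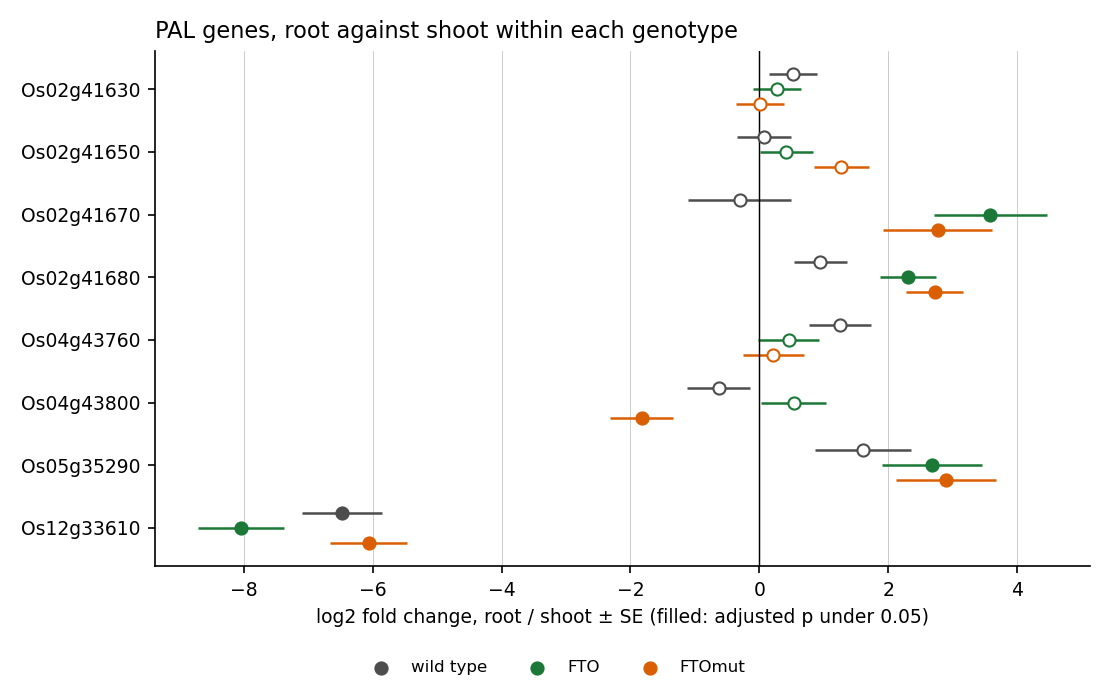
Log2 fold changes of root over shoot for the 8 tested PAL genes within wild type, FTO and FTOmut (points, with bars of 1 SE from the edgeR fit of 12 libraries, TMM scaling). Filled points passed adjusted p under 0.05. LOC_Os12g33610 lies between -8.05 and -6.07 in all genotypes, and the filled points to the right are from FTO and FTOmut.

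Whether the genotype effect differed between organs was tested as its own contrast over 12 libraries. By edgeR 0 of the 8 PAL genes were called for FTO, where 3.31% of all genes were (1.87% higher, 1.44% lower), and 0 for FTOmut, where 0.909% were (0.356% higher, 0.553% lower). At an unadjusted p under 0.05, 8407 genes were counted for FTO and 5300 for FTOmut, with 2 PAL genes each. DESeq2 called 2 PAL genes for FTO and 3 for FTOmut, among 2860 and 1815 genes called over all. LOC_Os02g41670 had the widest gap, with a FTO effect larger in root by log2 3.89 (SE 1.17, edgeR adjusted p = 0.0959) and a FTOmut effect larger by 3.08 (SE 1.15, adjusted p = 0.247). The calls made in root and missed in shoot are thus not shown to differ between organs by the edgeR test. Leaving out wild-type shoot replicate 1 gave 1 PAL call for each effect, leaving out FTOmut shoot replicate 1 gave 1 and 2, and leaving out FTOmut shoot replicate 2 gave 0 and 1.

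The steps after PAL were described with lists of 43 pathway genes, chosen with earlier results of these data known. The names of 15 genes agreed in chromosome and order with the reference gene table. Of these, a symbol is printed only for called genes with mean log2 CPM of at least 1, and all others enter by counts. The names of the C4H genes did not pass this check, so they are called as listed. The most abundant of them is given by identifier. Of the 3 tested C4H genes, which act directly after PAL, 2 were higher in FTO root than in wild-type root and 0 lower. Of all genes 16.3% were higher and 18.8% lower there, and the C4H median log2 fold change was 2.1. The C4H gene not called, LOC_Os05g25640, had the highest mean level in root (log2 CPM 8.76, against 5.09 and 5.68). Its log2 fold change in FTO root was 0.26 (edgeR adjusted p = 0.277). In FTOmut root 3 of 3 C4H genes were higher, where 32.5% of all genes were. Their median was 4.73, with LOC_Os05g25640 at 0.98. All 3 were lower in FTO than in FTOmut, at a median of -2.55, where 5.47% of all genes were lower.

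The 4CL genes, which activate cinnamic acids as CoA esters, were mixed. In FTO against wild-type root 1 of 5 was higher and 1 lower, close to the shares over all genes (16.3% and 18.8%). In FTOmut 3 of 5 were higher and 1 lower, where 32.5% and 29.1% of all genes were. 4CL5 (LOC_Os08g34790) had 36.7 and 37.2 CPM in wild-type root, 168.2 and 168.4 in FTO root and 590.9 and 337.6 in FTOmut root. It was 4.55-fold higher in FTO (log2 2.19, SE 0.24, edgeR adjusted p = 8.54e-06) and 12.6-fold higher in FTOmut (log2 3.65), and the genotypes did not overlap. 4CL1 (LOC_Os08g14760) had 36.6 and 42.9 CPM in the wild-type libraries, 8.96 and 12.4 in those of FTO and 22.1 and 15.8 in those of FTOmut. It was 3.73-fold lower in FTO (log2 -1.9, adjusted p = 2.28e-05) and 2.11-fold lower in FTOmut (log2 -1.08, adjusted p = 0.00129). 4CL3 (LOC_Os02g08100) was higher in FTOmut alone among the called (log2 1.27, adjusted p = 0.000111) and lower in FTO than in FTOmut (log2 -1.1, adjusted p = 0.000991).

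Genes of the lignin branch did not follow one direction. Of 13 tested genes, 1 was higher and 6 lower in FTO root, where 16.3% and 18.8% of all genes were. The median log2 fold change was -0.27. In FTOmut root 5 were higher and 5 lower, at a median of -0.02. Of all genes 32.5% were higher and 29.1% lower there, so the FTOmut counts are near the background. The higher ones in FTOmut include genes with a mean log2 CPM of -0.23 and -0.44. COMT1 (LOC_Os08g06100), a methyltransferase of monolignol synthesis, had 987.4 and 1054 CPM in wild-type root, 447.7 and 418.9 in FTO and 490.6 and 384.7 in FTOmut. It was 2.35-fold lower in FTO (adjusted p = 0.000136) and 2.33-fold lower in FTOmut (adjusted p = 0.000103). HCT1 (LOC_Os04g42250) was lower in FTO (log2 -1.1, adjusted p = 0.000251) and HCT2 (LOC_Os02g39850) higher (log2 0.87, adjusted p = 0.00259), both listed as hydroxycinnamoyl transferases of lignin synthesis. CAD1 (LOC_Os10g11810), a reductase of the last step to monolignols, was at log2 -0.69 in FTO (adjusted p = 0.00891) and -0.89 in FTOmut (adjusted p = 0.00109).

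The flavonoid branch held the largest falls among the printed names. In FTO root 0 of 8 tested genes were higher and 2 lower, where 18.8% of all genes were lower, so the count is near the background. In FTOmut 1 was higher and 5 lower, where 29.1% of all genes were lower. CHS1 (LOC_Os11g32650), chalcone synthase and the entry of the branch, had 12.2 and 14.8 CPM in wild-type root, 1.35 and 1.21 in FTO and 2.06 and 0.897 in FTOmut. It was 10.6-fold lower in FTO (log2 -3.4, SE 0.34, adjusted p = 3.54e-06) and 9.31-fold lower in FTOmut (adjusted p = 2.39e-06). CHI (LOC_Os03g60509), chalcone isomerase, had 84.98 and 95.3 CPM in the wild-type libraries, 17.2 and 17.02 in those of FTO and 29.2 and 25.9 in those of FTOmut, 5.27-fold and 3.27-fold lower. CHS2 (LOC_Os07g11440) was lower in FTOmut (log2 -1.9, adjusted p = 0.000245). Of 10 regulators and genes of phenylalanine supply, 3 were higher and 6 lower in FTO root, where 16.3% and 18.8% of all genes were. In FTOmut root 3 were higher and 5 lower, where 32.5% and 29.1% of all genes were. The count of higher genes in FTOmut was thus near the background.

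**Figure D5:**
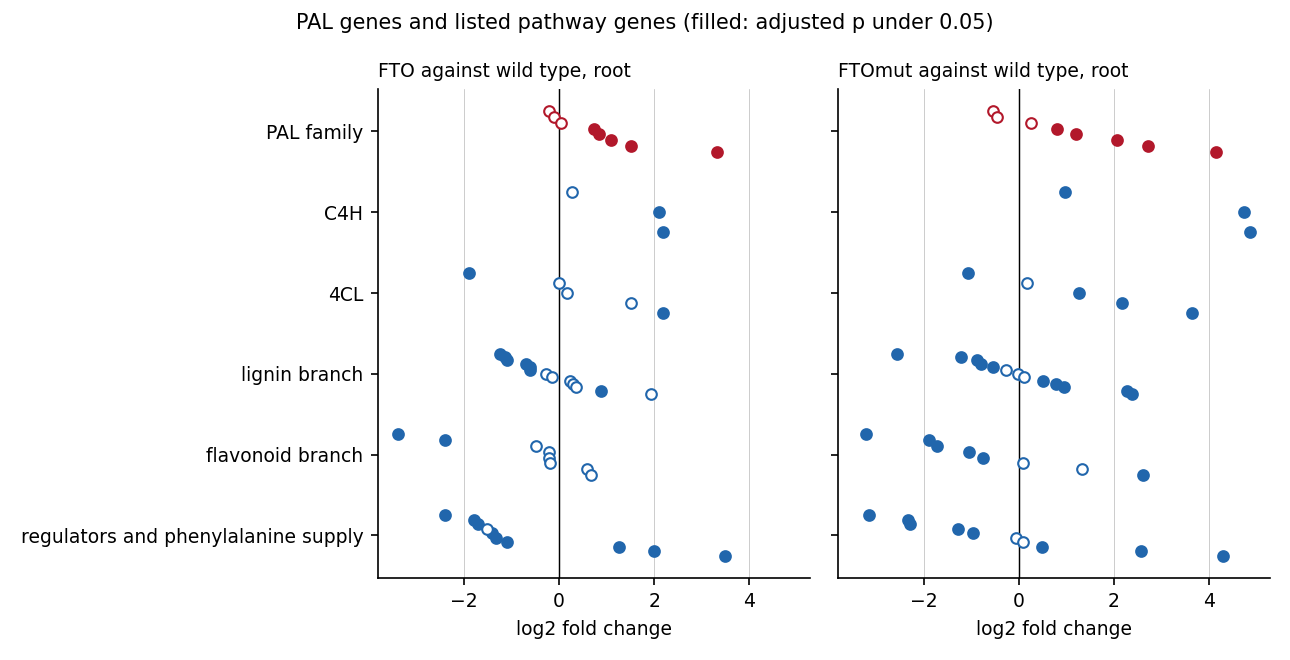
Log2 fold changes in root of the 8 tested PAL genes (red) and of the tested genes of 5 pathway lists (blue), for FTO over wild type (left) and FTOmut over wild type (right). Each point is 1 gene and filled points passed adjusted p under 0.05. The C4H medians are 2.1 and 4.73, while the lignin and flavonoid lists have called genes on the left of 0, down to -3.4.

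In shoot 0 genes of these 5 lists were called between genotypes. Between organs 4CL1 was higher in root in all genotypes (log2 4.76 in wild type, 2.5 in FTO and 2.68 in FTOmut) and CHS1 lower (log2 -3.89, -7.99 and -7.14). These organ values, too, are relative to the TMM scaling.

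The m6A lists were read to ask whether PAL transcripts carry peaks that the demethylase could act on. None of the 9 PAL genes had a peak in any of the 12 deposited lists of the authors, in either organ or any genotype. A replicated peak is one where both lists of a group hold overlapping peaks for the gene (1 bp or more, same strand). Of all 55801 genes, 19.4% had a replicated peak in wild-type root, 19.7% in FTO root and 20.0% in FTOmut root, and in shoot 19.0%, 20.4% and 19.9%. The peak lists have no input counts for genes without peaks, so no limit can be set on the methylation of PAL transcripts.

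The highest PAL transcripts are of a level at which few genes had peaks. Of the 71 genes with at least the unscaled CPM per kb of LOC_Os02g41650 in root, 12.7% had a peak in any root list, and of the 90 genes at or above LOC_Os02g41630, 15.6%. For LOC_Os04g43760 and LOC_Os04g43800, which were lower, the shares were 54.9% of 2540 genes and 68.4% of 10899. In shoot, 54.8% of the 2622 genes at or above LOC_Os12g33610 had a peak in any shoot list. For LOC_Os02g41670, LOC_Os02g41680 and LOC_Os05g35290 the shares were 23.8%, 21.9% and 27.1% in root and 48.3%, 41.7% and 53.8% in shoot. Whether transcript level plays a part in the absence of PAL peaks was not tested.

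Of the 12 genes next to or between the PAL genes of chromosomes 2 and 4, 10 had no peak in any list. Their mean level over the root libraries was low, at 0.0713 to 4.55 CPM. LOC_Os02g41610, near the chromosome 2 group, had a peak in 10 of the 12 lists, and LOC_Os04g43750, beside LOC_Os04g43760, in 12 of 12. These neighbours with peaks had higher mean root levels, 5.53 and 10.1 CPM. In the pathway lists 1 of 4 C4H genes, 3 of 5 4CL genes, 8 of 14 lignin genes, 5 of 10 flavonoid genes and 2 of 10 regulators and genes of phenylalanine supply had a peak in any list, where 17435 of all 55801 genes had one. 4CL1, HCT1 and CAD1 had one in 12 of 12 lists, while 4CL5, COMT1 and CHI, like the PAL genes, had none.

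Across the 12 RNA-seq libraries the PAL genes fell into patterns that can be described by correlation of log2 CPM, without a test, since organ and genotype are shared by the points. LOC_Os02g41670, LOC_Os02g41680 and LOC_Os05g35290 were closest to each other, with Pearson's r of 0.934, 0.931 and 0.907 for the 3 pairs, although LOC_Os05g35290 lies on another chromosome. LOC_Os02g41630 was closest to LOC_Os04g43760 (r = 0.664). LOC_Os12g33610 ran against LOC_Os05g35290 (r = -0.80). The genes outside the lists most like LOC_Os02g41650, the PAL gene with the highest mean level per kb, were LOC_Os09g33860 (r = 0.934, Spearman's rho = 0.944) and LOC_Os10g33990 (r = 0.931, rho = 0.951), among 17224 genes compared over the 12 libraries.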

How the data were processed

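The submitters' processing notes name cutadapt 1.15, HISAT2 2.1.0 and, for counting, featureCounts (Subread 1.6.4). The deposited gene tables hold expected counts (fractional where a read was shared between places, 7.84% to 22.1% of gene rows) and, in another unit, gene length in bp; no genome build is named in the sources used here. In the authors' deposited peak lists, made with MeTPeak per the labels, the fold enrichment is a ratio (immunoprecipitate to input) and the FDR is on a log10 scale.

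Counts were rounded and fitted with edgeR 4.0.16 (R 4.3.3): filter by expression, TMM, robust quasi-likelihood F test, two-sided, Benjamini-Hochberg adjustment over all genes, threshold 0.05. Genotypes were compared within the 6 libraries of an organ, organs and differences between organs over all 12. Rows of ERCC transcripts were left out of library sizes and tests. CPM are of TMM-scaled libraries. The fit was also run on simulated counts with the same spread for every gene and library. These libraries differ in spread, so that run does not measure the error of the calls reported here. Gene names came from a reference gene table of another assembly, which holds 0 of the 9 PAL identifiers; 22 of 53 listed symbols passed a check of chromosome and order. Up to 4 called genes per pathway list and comparison, with mean log2 CPM of at least 1, are named by size of change. Alternatives were RLE factors, ERCC scaling, DESeq2 1.42.0, no filter, 2 loci on chromosome 9 left out, a replicate block, fractions dropped, single libraries left out, and fits of the 4 libraries compared. The labels name both ribosomal depletion and polyA RNA for the RNA-seq; the protocol was followed. Members and lists were chosen with earlier results of these data known.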

Additional observations from a re-analysis of the deposited data

Results flagged for a closer look

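By the test of the difference itself, edgeR called 2 of the named pathway genes and none of the PAL genes. For these 2 the FTO fold change in root was unlike that in shoot. DESeq2 called 2860 genes, of which 2 were PAL genes. They were LOC_Os02g41670 (log2 4.15, adjusted p = 0.00265) and LOC_Os02g41680 (log2 1.64, adjusted p = 0.0276). For CHS1 (LOC_Os11g32650) the log2 fold change of FTO over wild type differed by -4.09, root minus shoot (edgeR adjusted p = 0.0211), from -3.4 in root and 0.40 in shoot. It was called under 16 of 19 alternatives, with values from -5.5 to -3.29 and adjusted p up to 0.0962. For 4CL1 (LOC_Os08g14760) the difference was -2.27 (edgeR adjusted p = 0.0493), from -1.9 in root and 0.07 in shoot, where its level was at most 1.32 CPM. It was called under 3 of 19 alternatives, with values from -2.66 to -1.85 and adjusted p from 0.0385 to 0.478.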

How the results depend on the processing

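Of the 1480 fold changes of PAL genes recomputed under an alternative, 1323 kept their side of the threshold. These include fold changes that turned direction without a call in either fit. Of the others, 72 lost a call, 74 gained one and 11 turned with a call in at least one of the fits. With single libraries left out (the lone library then assumed to vary like the others), PAL calls ranged from 1 to 5 for FTO against wild-type root, 3 to 6 for FTOmut against wild-type root, 0 to 6 for FTO against FTOmut root, 0 to 4, 0 to 5 and 0 to 5 for the same comparisons in shoot, 1 to 3, 2 to 4 and 2 to 5 for root against shoot in wild type, FTO and FTOmut, and 0 to 1 and 0 to 2 for the organ differences of the FTO and FTOmut effects. With no filter on low counts, calls were 3 for FTO against wild-type root, 1 for FTO against FTOmut shoot, 2 for root against shoot in wild type and 1 for the organ difference of FTO. DESeq2 gave 4 for FTO against wild-type root, 3 for FTO against FTOmut root and 1 for FTO against FTOmut shoot. It gave 6 for root against shoot in FTOmut and 2 and 3 for the organ differences of FTO and FTOmut. Over all genes DESeq2 called 10089, 5216 and 1388 in the first 3 and 7116, 2860 and 1815 in the others. With the 4 libraries compared, 5 were called for FTO against FTOmut shoot and 8 for root against shoot in FTO. Without FTOmut replicate 2 in both organs, an alternative chosen after seeing the data, 2 were called for root against shoot in FTOmut.

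ERCC scaling gave 4 calls for root against shoot in wild type and turned LOC_Os02g41630 to -1.0, LOC_Os02g41650 to -1.39 and CAD1 (LOC_Os10g11810) to -0.44 there. In FTO it turned LOC_Os02g41630 to -1.37, LOC_Os02g41650 to -1.23, LOC_Os04g43760 to -1.21, HCT2 (LOC_Os02g39850) to -0.39 and CAD2 (LOC_Os02g09490) to -0.55, and in FTOmut LOC_Os02g41630 to -1.72 and LOC_Os04g43760 to -1.49. These directions follow from the scaling itself, which moves all genes. For FTO against FTOmut root, LOC_Os02g41650 ranged from -0.52 (without FTOmut root replicate 2) to 0.56 (without FTOmut root replicate 1). For FTO against wild-type shoot, LOC_Os02g41670 ranged from -2.12 without wild-type shoot replicate 1 to 1.74 without replicate 2, and LOC_Os05g35290 from -1.85 to 1.64. Without wild-type shoot replicate 2, LOC_Os02g41670 turned to 2.59 for root against shoot in wild type; the cause was not tested.

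Replicates share only a number: the labels name no shared batch, and deviations of same-numbered root libraries of wild type and FTO correlated at -0.04, of wild type and FTOmut at 0.14, and of FTO and FTOmut at -0.28; FTOmut root and shoot correlated at 0.72. With the replicate block, 4 PAL genes were called for FTO against FTOmut root and 2 for root against shoot in wild type. The block also called LOC_Os02g41630 (adjusted p = 0.0261) and LOC_Os04g43760 (0.0416) lower for FTOmut against wild-type root and LOC_Os02g41650 (0.0361) higher for root against shoot in FTOmut, and ended root-against-shoot calls of LOC_Os05g35290 in FTO (0.0527) and FTOmut (0.0527) and of LOC_Os02g41670 in FTOmut (0.104). Pairing FTO replicate 1 with FTOmut replicate 2 and the reverse, chosen after seeing the data, gave 4 in the former. Calls over all genes ranged from 4825 to 18800 (11399 as reported) for FTO against wild-type root, 12371 to 33821 (19996) for FTOmut, 2954 to 17741 (6581) for FTO against FTOmut, and from 0 to 3946, 4305 and 4754 in shoot. For root against shoot they ranged from 4182 to 14718 (7649) in wild type, 4339 to 18018 (8570) in FTO and 3461 to 17422 (5808) in FTOmut, and for the organ differences from 239 to 5095 (1274) for FTO and 71 to 7286 (350) for FTOmut. The stricter fold, FDR and overlap and the single lists could not change the absence of m6A peaks, since no list held a PAL peak to begin with. Depth limits LOC_Os11g48110, at no more than 13 counts.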
